A study of Solanum lycopersicum with 6 samples.

Results

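Lipoxygenases of tomato leaf were read from 15 probes of 4 genes, out of 43603 non-control probes on the arrays. A probe was taken where its accession on the array is the RefSeq transcript of a tomato gene whose symbol starts with LOX in either case. This gave LOX1.1 with 3 probes, LOXB with 6, loxC with 3 and loxF with 3. The reference lists 5 such genes, and loxD, which supplies jasmonate after wounding, was not analysed here because no probe carries its accession. The samples were leaf discs of 1 cm from 4-week-old plants of the dwarf tomato cultivar Micro-Tom (Solanum lycopersicum). Discs were floated for 12 h in continuous light at 25 °C on 300 µM loliolide, a lactone formed from carotenoids, or on the control solution of 0.1% methanol. The sample labels also give a cycle of 16 h light and 8 h dark, the same for both groups. Each group had 3 samples, each on its own 1-colour Agilent array. Nothing in the labels says that the triplicates were separate plants, and the p-values therefore measure only the spread among these 6 samples, which may be technical. Cutting and floating the discs was common to both groups.

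Lipoxygenases add oxygen to the polyunsaturated fatty acids of membranes, and the hydroperoxides they make are called oxylipins once processed further. Which carbon of the fatty acid is oxygenated decides the branch: plastid enzymes of one class feed jasmonate synthesis and the leaf volatiles, and enzymes of the other class make hydroperoxides outside the plastid. In tomato, LOX1.1 (also loxA or tomloxA) and LOXB (also LOX1.2 or tomloxB) are known as lipoxygenases of the fruit, loxC (also TomloxC) as a plastid enzyme that supplies short-chain volatiles, and loxF as a relative of loxC.

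On assembly SLM_r2.1 the genes loxC (gene 544008, chromosome 1 from 1468321 to 1478219) and loxF (gene 100301936, chromosome 1 from 1483283 to 1494006) are neighbours with 5063 bases between them. LOXB (gene 543997) lies far from them on chromosome 1, from 85370010 to 85373719, and LOX1.1 (gene 543994) on chromosome 8 from 4210266 to 4216718. Probe sequences were not used here, so the exon or UTR that each probe reads, and whether a probe of one gene also binds the RNA of another, was not tested.

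All 3 loliolide arrays lay on one slide and all 3 methanol arrays on another, so that for every value below the effect of the slide and that of loliolide cannot be told apart. The 75th percentile of the signal was 817.7 on the array of loliolide replicate 3 and between 1048 and 1117 on the 5 others. Of the spots, 86.93% to 87.62% were well above background on the loliolide arrays and 84.5% to 85.3% on the methanol arrays. After scaling, the median of the 10 E1A spike-in controls was 0.48 to 0.91 with loliolide and 0.30 to 0.42 with methanol on the log2 scale. The leaf markers CAB4 and CAB6A, which encode chlorophyll-binding proteins, were well above background on all 6 arrays and ranked at percentiles 96.1 and 97.4 of the mean signal. They were the only 2 members of the marker list with a tested probe. In bulk leaf RNA, fewer cells of a type and less RNA per cell cannot be told apart.

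A probe was tested where the scanner program marked it well above background on all arrays of either group, and levels are log2 signals relative to the 75th percentile of their array, here called scaled. None of the 10 lipoxygenase probes that could be tested passed a limma adjusted p of 0.05, against 0.783% of all 37424 tested probes. The lowest limma adjusted p among them was 0.184. Without adjustment, 4 of the 10 had a limma p under 0.05, of which 2 were higher and 2 lower with loliolide, against 20.1% of all tested probes (14.7% higher and 5.4% lower). One of the lower probes, A_96_P168704 of LOX1.1, entered the test through its methanol arrays alone. Where all 6 arrays had to be well above background, 3 lipoxygenase probes had such a p, as had 7036 of all probes. The number of probes tested under that filter is not given here, so neither count has a share beside it. The 20.1% belongs to the looser filter. Probes of 1 gene are assigned to the same transcript and are not taken as independent. The genes did not point one way: the LOX1.1 probes were lower with loliolide, and the LOXB probe, the loxF probes and the brightest loxC probe were higher. By the brightest probe of each gene, 3 of the 4 lipoxygenases were higher, where 18384 of all 28300 genes tested were higher. The median log2 difference of the 4 was 0.39, beside 0.08 over all genes. The loxC and loxF probes among the 4 had nearly the same profile over the arrays, and whether they read the same RNA was not tested.

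By the brightest probes, LOX1.1 differed most of the 4 genes and was lower with loliolide. That probe, A_96_P012631, read 204, 217 and 111 intensity units before scaling with loliolide, and 572, 283 and 291 with methanol. All 3 loliolide arrays were below all 3 methanol arrays, with loliolide replicate 3 the lowest and methanol replicate 1 well above the other two. Scaled, it averaged -2.52 ± 0.31 over the loliolide arrays and -1.62 ± 0.58 over the methanol arrays on the log2 scale (SD, n = 3 each). The difference was -0.90 (SE 0.31, 95% confidence interval -1.63 to -0.17, limma adjusted p = 0.184), or 0.536-fold with an interval of 0.324 to 0.889. This difference lay at percentile 0.6 of all tested probes. By unadjusted limma p the probe ranked 4648 among the 37424 tested.

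The 2 dimmer LOX1.1 probes kept that array order at its ends, with methanol replicate 1 highest and loliolide replicate 3 lowest. A_96_P168704 read 18.6, 19.3 and 5.82 units with loliolide and 48.9, 23.0 and 25.3 with methanol, without overlap between the groups. It was well above background on 2 of 3 loliolide arrays and 3 of 3 methanol arrays, so that it was tested only because of the group in which it was higher. Its fitted log2 difference of -1.06 (SE 0.44, limma adjusted p = 0.245) includes loliolide replicate 3, where it was not well above background, and was -0.62 without that array. A_96_P161716 read 10.2, 11.1 and 6.29 units with loliolide and 26.0, 10.002 and 14.5 with methanol. Here the groups overlapped, since methanol replicate 2 was below 2 of the loliolide arrays, and the difference was -0.61 (SE 0.34, limma adjusted p = 0.355). Of the 10 tested lipoxygenase probes 2 were lower without overlap, A_96_P012631 and A_96_P168704, and none was higher. Among all tested probes with a value on all 6 arrays, 9.66% were lower without overlap and 19.8% higher. Of these 2 probes A_96_P012631 alone was well above background on all 6 arrays, and no share of all probes is given for that stricter filter. With normexp background correction the differences were -0.72 for A_96_P012631, -0.16 for A_96_P168704 and 0.029 for A_96_P161716. Without methanol replicate 1 the difference of A_96_P012631 was -0.56 (limma adjusted p = 0.297), that of A_96_P168704 was -0.72 and that of A_96_P161716 was -0.24. Without methanol replicate 2 that of A_96_P161716 was -0.93. Weighting the arrays by their quality gave A_96_P012631 a difference of -1.12 with a limma adjusted p of 0.0488, in a fit that called 3527 of all probes against 293. Over its 16 alternatives the limma adjusted p of A_96_P012631 ranged from 0.0488 to 0.377.

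**Figure D1:**
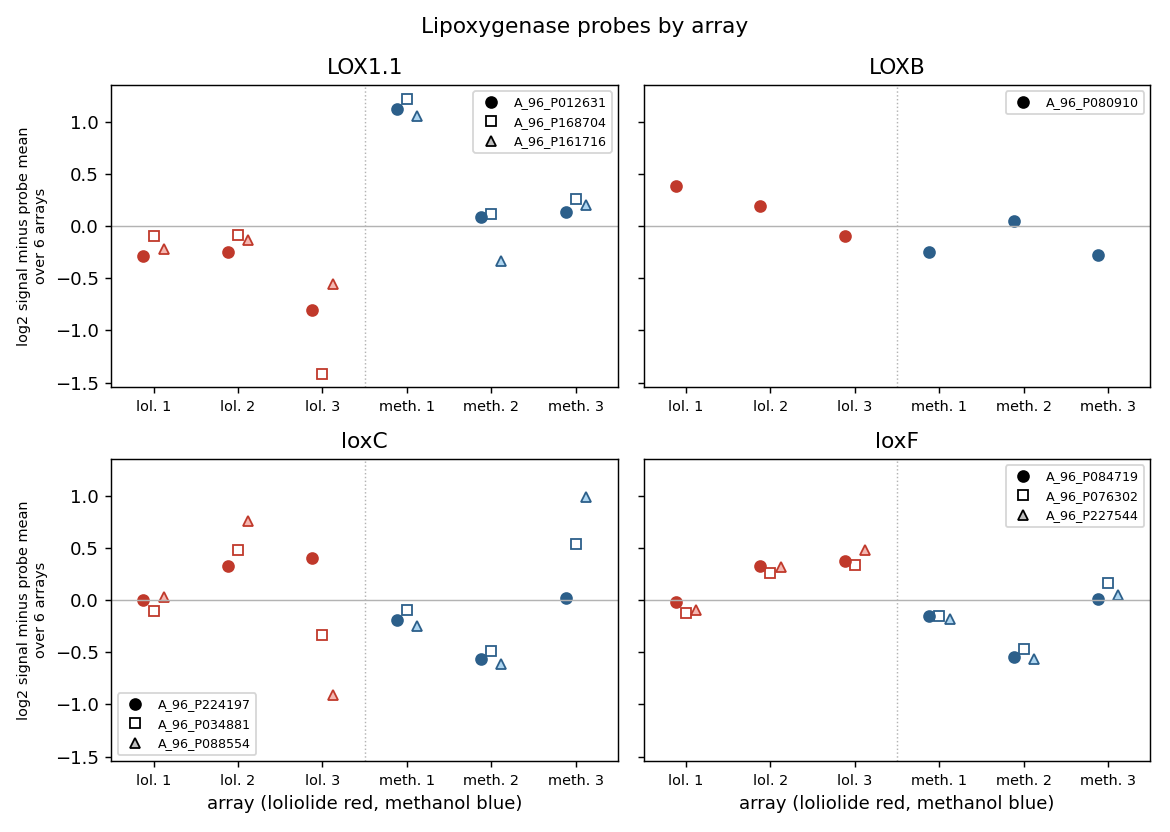
Log2 signal of each tested lipoxygenase probe on each array, after scaling and after subtracting the probe's mean over the 6 arrays. Red marks are loliolide arrays, blue marks are methanol arrays, and marker shapes are probes. The LOX1.1 probes are highest on methanol replicate 1 (1.05 to 1.22) and lowest on loliolide replicate 3 (-1.41 to -0.56), and the brightest loxC probe (0.41 on loliolide replicate 3) parts there from the other loxC probes (-0.33 and -0.91).

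LOXB was near the detection limit on most of its probes. Of its 6 probes, A_96_P080910 alone was well above background on every array. It read 89.7, 81.0 and 50.2 units with loliolide and 61.0, 75.7 and 60.1 with methanol, so the unscaled ranges overlapped. Scaled, it averaged -3.77 ± 0.24 over the loliolide arrays and -4.09 ± 0.18 over the methanol arrays on the log2 scale (SD, n = 3 each). The scaled groups also overlapped, because loliolide replicate 3 was below methanol replicate 2. The difference was 0.32 (SE 0.16, 95% confidence interval -0.05 to 0.70, limma adjusted p = 0.301), and it was 0.21 without loliolide replicate 1.

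The 5 other LOXB probes did not enter the test, since none was marked well above background across a whole group. A_96_P237717 was well above background on 2 of 3 loliolide arrays and 1 of 3 methanol arrays, and A_96_P154736 on 1 of 3 loliolide arrays and 0 of 3 methanol arrays. A_96_P174834, A_96_P154531 and A_96_P172461 were not well above background on any array. The signals of these 5 probes ran from 1.24 to 8.10 units with loliolide and from 1.32 to 10.7 with methanol, and no fold is given for them. The LOXB result therefore rests on 1 probe.

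The 3 loxF probes, all well above background on all 6 arrays, were each higher with loliolide on average, and none passed. The brightest, A_96_P084719, read 1808, 2374 and 1853 units with loliolide and 1745, 1336 and 1962 with methanol. Its scaled log2 mean was 1.03 ± 0.21 on the loliolide arrays and 0.58 ± 0.29 on the methanol arrays (SD, n = 3 each), with methanol replicate 3 above loliolide replicate 1. Its difference was 0.46 (SE 0.18, 95% confidence interval 0.03 to 0.88, limma adjusted p = 0.228), or 1.37-fold. A_96_P227544 differed by 0.47 (SE 0.21, limma adjusted p = 0.266) and A_96_P076302 by 0.31 (SE 0.20, limma adjusted p = 0.416). On each loxF probe methanol replicate 2 was the lowest array and loliolide replicate 3 the highest after scaling. Without methanol replicate 2 the differences were 0.30 for A_96_P084719, 0.30 for A_96_P227544 and 0.15 for A_96_P076302, and without methanol replicate 3 that of A_96_P076302 was 0.46.

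The loxC probes disagreed among themselves. The brightest, A_96_P224197, read 1223, 1591 and 1267 units with loliolide and 1130, 885 and 1319 with methanol. Its scaled log2 mean was 0.47 ± 0.22 on the loliolide arrays and -0.02 ± 0.29 on the methanol arrays (SD, n = 3 each). The difference was 0.49 (SE 0.18, 95% confidence interval 0.06 to 0.92, limma adjusted p = 0.21). The groups overlapped by 1 array each, methanol replicate 3 lying just above loliolide replicate 1.

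A_96_P034881 read 232, 359 and 154 units with loliolide and 246, 188 and 383 with methanol, a log2 difference of 0.03 (SE 0.31, 95% confidence interval -0.70 to 0.77, limma adjusted p = 0.962). A_96_P088554 read 36.4, 62.3 and 14.8 units with loliolide and 31.7, 24.8 and 75.1 with methanol, a log2 difference of -0.08 (SE 0.54, 95% confidence interval -1.36 to 1.20, limma adjusted p = 0.949). For both, methanol replicate 3 was the highest array after scaling, and loliolide replicate 3 was lower than the other loliolide arrays, where the brightest probe had its highest value. The intervals of these 2 probes include the difference of the brightest probe. Scaling to the spike-in controls, which put the median of all probes at -0.24, gave 0.19 for the brightest loxC probe, 0.16 for that of loxF, 0.17 and 0.0085 for the loxF probes A_96_P227544 and A_96_P076302, 0.02 for LOXB and -1.20 for the brightest LOX1.1 probe.

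**Figure D2:**
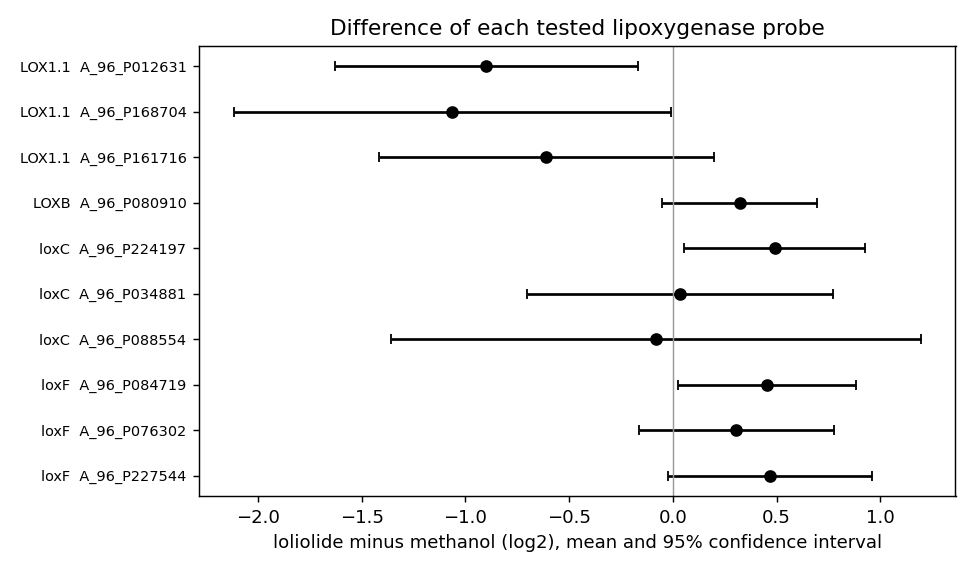
Log2 difference, loliolide minus methanol, of each of the 10 tested lipoxygenase probes, with its 95% confidence interval from limma. The LOX1.1 probes lie between -1.06 and -0.61, the loxF probes between 0.31 and 0.47, and the loxC probes at 0.49, 0.03 and -0.08.

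The array profiles of all tested lipoxygenase probes were then compared by the root mean square of the differences between their log2 values over the 6 arrays, each probe first centred on its own mean. The brightest loxC probe was closer to each loxF probe than to either of the other loxC probes. It departed from A_96_P084719 of loxF by 0.025, from A_96_P227544 by 0.05 and from A_96_P076302 by 0.10. From the loxC probes A_96_P034881 and A_96_P088554 it departed by 0.38 and 0.69. The loxF probes departed from each other by 0.06 to 0.09, and the LOX1.1 probes from each other by 0.21 to 0.41. All 10 probes share the 6 arrays and their scaling.

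Ratios between 2 probes on the same array do not change when 1 constant is subtracted per array, as was done here. This does not hold for scalings that depend on the signal level, under which the ratios were not computed. In total 15 such ratios were tested, 6 between genes and 9 between probes of a gene. With 3 arrays against 3 the smallest two-sided exact permutation p is 0.1, so none could pass 0.05. The ratio of LOX1.1 to loxC was lower on the loliolide arrays than on the methanol arrays, with a log2 difference of -1.39, and so were its ratios to loxF (-1.35) and to LOXB (-1.22). In each of these 3 ratios all loliolide arrays were below all methanol arrays (exact permutation p = 0.1, 0.25 after Benjamini-Hochberg adjustment over the 15 ratios). The 3 ratios are not independent. They share the LOX1.1 probe A_96_P012631, whose groups did not overlap by itself, and the loxC and loxF probes had nearly the same profile. Of the 9 ratios between probes of a gene, 3 also had groups without overlap, with smaller differences. How often ratios between other probes of the array part without overlap was not computed. Among single tested probes with a value on all 6 arrays, 9.66% were lower without overlap and 19.8% higher. Without methanol replicate 1 the differences of the 3 LOX1.1 ratios were nearer to 0, at -1.08 for loxC, -1.06 for loxF and -0.84 for LOXB.

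The ratio of loxC to loxF, by their brightest probes, hardly varied. Its log2 value was -0.56, -0.58 and -0.55 on the loliolide arrays and -0.63, -0.59 and -0.57 on the methanol arrays, where the sign reflects the probes and says nothing of which gene was more abundant. Its difference between groups was 0.04 (exact permutation p = 0.2, n = 3 each). The ratio between the loxC probes A_96_P224197 and A_96_P034881 was 2.40, 2.15 and 3.04 on the loliolide arrays and 2.20, 2.23 and 1.78 on the methanol arrays, a difference of 0.46 (exact permutation p = 0.3). The 3 ratios within a gene whose groups did not overlap were those of A_96_P012631 over A_96_P161716 of LOX1.1, with a difference of -0.29, and within loxF A_96_P084719 over A_96_P076302 (0.15) and A_96_P076302 over A_96_P227544 (-0.16), each with an exact permutation p of 0.1. Thus 2 probes of loxC varied against each other more than a loxC probe against a loxF probe. Whether the loxC probe A_96_P224197 also reads loxF RNA was not tested.

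**Figure D3:**
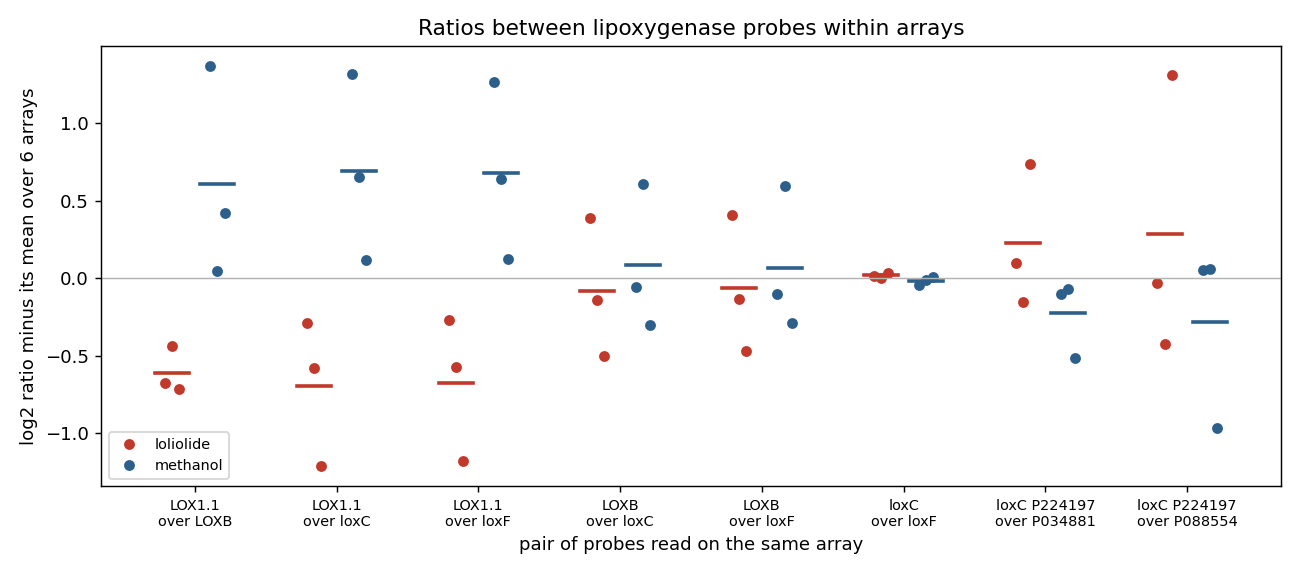
Log2 ratio between 2 lipoxygenase probes on the same array, minus its mean over the 6 arrays. Points are arrays, loliolide in red and methanol in blue, and bars are group means. In the ratios of LOX1.1 to LOXB, loxC and loxF the loliolide arrays lie below the methanol arrays (differences of -1.22, -1.39 and -1.35), and the ratio of loxC to loxF stays within a narrow band on all 6 arrays.

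Among the 1101 other named genes with a tested probe, the profile nearest to the brightest LOX1.1 probe was that of GABA-TP2, a transaminase gene of the breakdown of the amino acid GABA. It departed by a root mean square of 0.06 over the 6 arrays, where the median over these genes was 0.63, and differed by -0.87 between groups (limma adjusted p = 0.179). LOC101255600 followed at 0.13 and yfe37 at 0.20, with differences of -1.09 and -1.16 that did not pass. For loxC the nearest gene was loxF and for loxF it was loxC, at 0.025 each. The expansin gene EXPA8, whose product loosens cell walls, came next for both at 0.13, and the fruit transcription factor gene AP2a followed at 0.15 for loxC and 0.14 for loxF. For LOXB the nearest were XTH1, a xyloglucan-modifying wall enzyme, at 0.09, then ARF/XYL1 and GA2ox4 at 0.12 each. The median over the named genes was lower for these 3 than for LOX1.1, at 0.35 for loxC, 0.34 for loxF and 0.29 for LOXB. As a choice made after the values were seen, the dimmer LOX1.1 and loxC probes were set against the same genes. Of LOX1.1, A_96_P168704 was nearest to gad2 at 0.23, with GABA-TP2 not among its nearest 3 genes, and A_96_P161716 to NCED1 at 0.19, with GABA-TP2 next at 0.21. Of loxC, A_96_P034881 was nearest to XET4 at 0.11 and A_96_P088554 to ca2 at 0.23.

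Other genes of the oxylipin pathway came from a list of 55 symbols, of which 31 matched a gene in the reference and 20 had a tested probe. None of the 20 passed (lowest limma adjusted p = 0.0798), against 1.37% of all genes tested. Without adjustment, 2 higher and 4 lower genes had a limma p under 0.05, 6 of 20, against 20.6% of all genes tested. Of all 28300 genes, 4685 were higher and 1158 lower with such a p. In the list, 3 of the 4 lower genes belonged to the group systemin and targets. The median log2 difference of the 20 genes was -0.17, with 7 higher and 13 lower. Over all genes it was 0.08, with 18384 higher and 9916 lower.

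Among genes that supply the substrate, 1 of 3 was higher and 2 were lower. The smallest unadjusted p was that of Fad7, the plastid desaturase that makes the trienoic fatty acid, with a difference of -0.30 (SE 0.23, limma adjusted p = 0.505) and its 3 other probes at -0.25 to -0.10. Of the 7 jasmonate synthesis genes 3 were higher and 4 lower. The gene opr2, an oxophytodienoate reductase relative, was higher by 0.72 (SE 0.15, limma adjusted p = 0.0798). It read 217, 186 and 166 units with loliolide and 106, 149 and 140 with methanol, and its 5 other probes were higher by 0.63 to 0.70. AOC, the allene oxide cyclase that acts 2 steps after lipoxygenase, was singled out after its values were seen. It was lower with loliolide, the difference being -0.83 (SE 0.18, limma adjusted p = 0.0854), with 200, 307 and 158 units with loliolide against 440, 484 and 377 with methanol.

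In the volatile and divinyl ether branches 2 of 3 genes were higher. ADH2, the alcohol dehydrogenase that reduces the volatile aldehydes, was higher by 0.71 (SE 0.27, limma adjusted p = 0.211). Each of the 7 other ADH2 probes was higher by 0.48 to 0.88. HPL, the hydroperoxide lyase downstream of loxC, was singled out after its values were seen and differed by -0.31 by its brightest probe, and its 6 other probes ranged from -0.24 to 0.58. Of the 3 perception and transcription genes 1 was higher, and JAZ2, a jasmonate repressor gene, had the smallest unadjusted p, differing by -0.25 (SE 0.14, limma adjusted p = 0.349).

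Last in the list come systemin and genes taken as its targets. The brightest probes of the 4 tested members of this group, ARG1, ARG2, CEVI57 and LAPA1, were lower with loliolide, none of them passing. The 2 probes of the arginase gene ARG1 disagreed, at -0.73 (limma adjusted p = 0.219) for the brightest and 0.04 for the other. ARG2, the wound-induced arginase gene, differed by -0.96 (SE 0.34, limma adjusted p = 0.189), with 376, 652 and 249 units with loliolide and 1055, 1099 and 573 with methanol. LAPA1, a wound-induced leucine aminopeptidase, was singled out after its values were seen and differed by -2.09 (SE 0.82, limma adjusted p = 0.22). It read 785, 2468 and 1531 units with loliolide and 22062, 6410 and 2417 with methanol, so that methanol replicate 1 was its highest array, as it was for LOX1.1, and the groups overlapped.

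**Figure D4:**
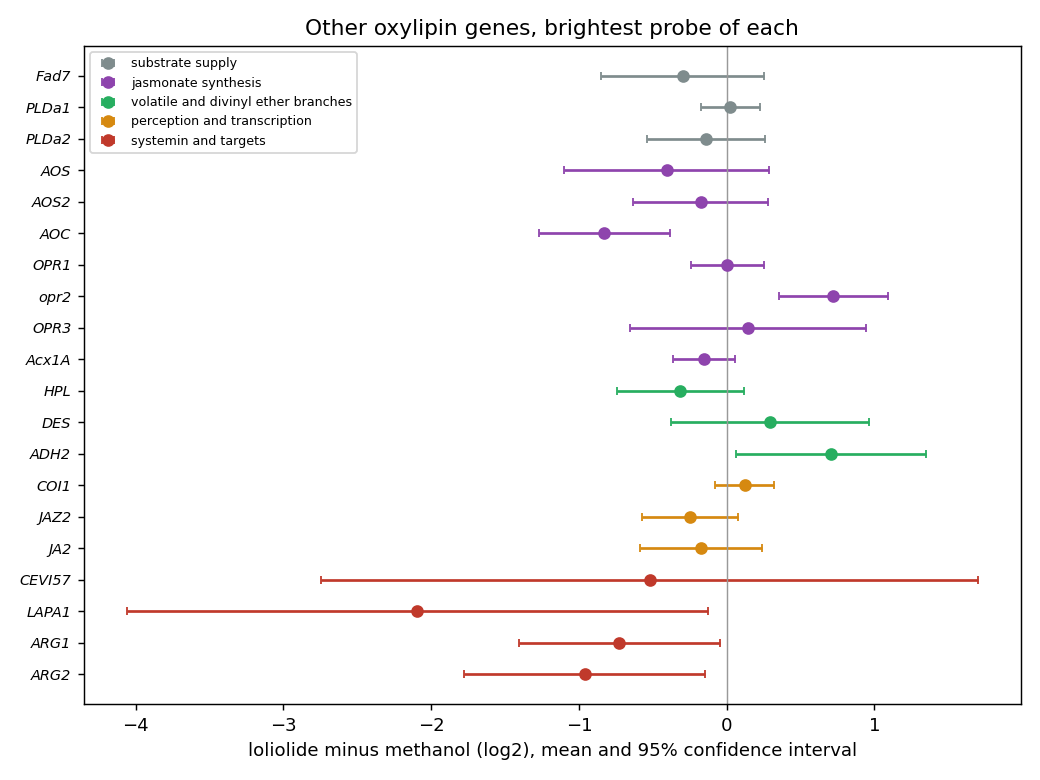
Log2 difference, loliolide minus methanol, of the 20 tested oxylipin pathway genes other than lipoxygenases, by the brightest probe of each, with 95% confidence intervals from limma and colours for roles. The 4 genes of the group systemin and targets lie below 0, LAPA1 at -2.09 (the other ARG1 probe, not drawn, is at 0.04), and opr2 and ADH2 lie highest at 0.72 and 0.71.

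The authors' deposited table, which lists 27 probes, held 0 of the 15 lipoxygenase probes.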

How the data were processed

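The scanner files that the authors deposited give each spot's intensity after background subtraction and spatial detrending. Agilent Feature Extraction made them, in version 11.5.1.1 per the file headers and 9.1 per the submitters' processing notes, without normalisation between arrays. They also deposited a table of log2 ratios, loliolide over methanol, for 27 probes. These log2 ratios equalled the scanner differences computed here up to 1 constant per numbered pair.

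Processed signals were log2-transformed, the 75th percentile of the non-control spots was subtracted on each array, and 0 to 5 outlier spots per array were left out. No spot was saturated. The test took the 37424 probes that were well above background on each array of either group. It used limma 3.58.1 (lmFit, eBayes; R 4.3.3), with p-values adjusted over all of these by Benjamini-Hochberg and a threshold of 0.05. A pathway gene was represented by its brightest probe, adjusted over 28300 genes. Accessions were matched to RefSeq genes of SLM_r2.1, which named 2576 probes of 1191 genes. Precision is limited by the 6 arrays.

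The members and lists were chosen with earlier results of these data known. All lipoxygenase probes are named. Pathway genes are named where they passed or had the smallest unadjusted p of their role, apart from those given as singled out after their values were seen or to name the members of a small group, and 3 nearest genes are named per lipoxygenase. Alternatives covered scaling, background correction, filters, variance, array weights, replicate numbers and each array left out.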

Additional observations from a re-analysis of the deposited data

How the results depend on the processing

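The count of 0 lipoxygenase probes and 0 pathway genes past a limma adjusted p of 0.05 became 1 and 3 with array weights, where A_96_P012631 of LOX1.1 differed by -1.12, and stayed 0 in the other fits run. The count over all probes, 293 as reported, was 107 with quantile normalisation, 189 with median centring, 102 with cyclic loess, 65 with spike-in scaling, 95 with normexp, 190 when all 6 arrays had to be well above background, 154 with a variance trend and robust eBayes, 3527 with array weights and 0 to 105 without each array (0 without loliolide replicate 1, where limma counted 5924 at an unadjusted p under 0.05). The replicate block gave 0 (5186 at an unadjusted p under 0.05 in limma) and left all lipoxygenase differences at a limma adjusted p of 0.27 or higher. The labels state no pairing, and the deviations of same-numbered arrays from their group means correlated at -0.16, -0.14 and -0.46.

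Of 159 differences of lipoxygenase probes under alternatives, 148 kept direction and call, 10 reversed and 1 passed. A_96_P034881 of loxC was -0.011 with median centring, -0.26 with spike-in scaling and -0.20 to 0.31 without each array. A_96_P088554 of loxC was 0.042 with normexp, 0.70 with array weights and -0.48 to 0.39 without each array, and A_96_P161716 of LOX1.1 was 0.029 with normexp. With normexp A_96_P168704 of LOX1.1 was -0.16, against -1.06 as reported. The offset of 50 in normexp shrinks differences of dim probes by construction. With spike-in scaling the median over all probes was -0.24, against 0.06 as reported, and the brightest probes of LOX1.1, LOXB, loxC and loxF differed by -1.20, 0.02, 0.19 and 0.16. Without each array the ratio of LOXB to loxC ranged from -0.40 to 0.093 and that of LOXB to loxF from -0.37 to 0.13. Between probes of a gene, A_96_P012631 over A_96_P168704 was -0.56 with normexp and -0.10 to 0.30 without each array, A_96_P084719 over A_96_P227544 was 0.0196 with normexp and -0.054 to 0.037 without each array, and A_96_P034881 over A_96_P088554 was -0.14 to 0.28 without each array. The cause was not tested for these shifts. A slide block was not run, since each slide holds 1 group, and normexp used median signals because the files hold no mean signal. Signal over background limits LOXB and the dimmer LOX1.1 probes.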
